A study of Mus musculus with 27 samples.

Results

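The comparison described here sets the nucleoplasm of primary mouse cortical neurons against the nucleoplasm of mouse embryonic stem cells. It rests on 6 of the 27 libraries of the series, chosen by their labels alone: 3 of mCtx nucleoplasm and 3 of mESC nucleoplasm. The mESC are the E14 line, a single established stem cell line, grown on gelatin in medium with LIF, a cytokine that keeps stem cells undifferentiated. The mCtx are primary cortical neurons kept for 5 days on poly-L-lysine, so they are a mixed culture whose cells are not sorted. Neither group carries a named allele or drug. Cells were separated into chromatin, soluble nucleoplasm and cytoplasm, RNA over 200 nt was kept, ribosomal RNA was removed, and stranded libraries were read as 100 bp pairs. The labels call the 3 samples of a group biological replicates and do not say which animals the neurons came from. The p-values of single genes measure the spread between samples within groups, estimated over all 27 libraries and not over these 6 alone.

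The nucleoplasm holds RNA that has left the gene but is not yet, or never will be, in the cytoplasm: spliced mRNA on its way out, transcripts that still carry introns, and noncoding RNA that works in the nucleus. Stem cells are held in self-renewal by a small network of transcription factors and divide without pause, while cortical neurons have left the cell cycle and transcribe many long genes for synapses, channels and adhesion. Neurons also exchange members of RNA-binding and chromatin-remodelling families for neuronal paralogs.

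Levels are CPM, the reads of a gene per 1000000 counts, after trimmed-mean scaling over genes of the nuclear genome. A count takes in reads over the gene's whole span, introns included. A log2 fold change is mCtx minus mESC, positive where mCtx was higher, and a gene passed at an adjusted p under 0.05 in edgeR's quasi-likelihood test over all 18252 genes tested. The 6 libraries held between 15037665 and 19871198 counts. All 3 mCtx libraries lay close together, while the mESC library numbered 1 stood apart: the chi-square per gene was 2.84 to 7.47 between mCtx libraries, 11.6 between mESC libraries 2 and 3, and 47.2 and 67.2 between mESC library 1 and the others. How reads that fit several gene copies were counted is not given in the sources used here, so levels of genes with close copies, such as Dppa5a, Tubb3, Tubb5 and Actb, are uncertain to that extent.

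Over all genes tested, 7013 (38.4%) were higher in mCtx, 8021 (43.9%) were higher in mESC and 3218 did not pass, and the median log2 fold change was -0.18. With the deposited TPM on the log2(TPM + 1) scale, limma called 12018 genes higher in mCtx and 5657 lower, out of another set of 25219 genes tested. After TPM were rescaled by the median ratio between libraries, it called 10403 higher and 7525 lower. With no scaling beyond the total count, 5714 genes were higher and 9515 lower and the median moved to -0.62, so changes of less than that shift depend on the scaling. The libraries of the cell types did not overlap for 82.7% of genes, with mCtx above for 39.4% and mESC above for 43.3%. The share of all genes called, 82.4%, is the background for the counts that follow.

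The defining markers separated the cell types as labelled. Pou5f1, which encodes the pluripotency factor OCT4, stood at 166, 271 and 343 CPM in mESC and at 0 counts in all 3 mCtx libraries, at least 1137-fold lower in mCtx when set against a floor of 3 counts per library. Gm19553 overlaps 31.1% of the Pou5f1 span on the other strand. Map2, which encodes a dendritic microtubule protein, stood at 4216, 4323 and 4586 CPM in mCtx and 13.3, 20.5 and 21.1 CPM in mESC (log2 fold change 7.90, SE 0.26, edgeR adjusted p = 9.98e-20). Both genes separated the groups without overlap, in opposite directions. In the deposited TPM, Pou5f1 was at 0.13 to 0.25 in mCtx and 72.86 to 193.39 in mESC, and Map2 at 547.36 to 629.76 in mCtx and 1.23 to 2.50 in mESC. In bulk RNA, fewer cells of a type and less RNA per cell cannot be told apart.

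**Figure D1:**
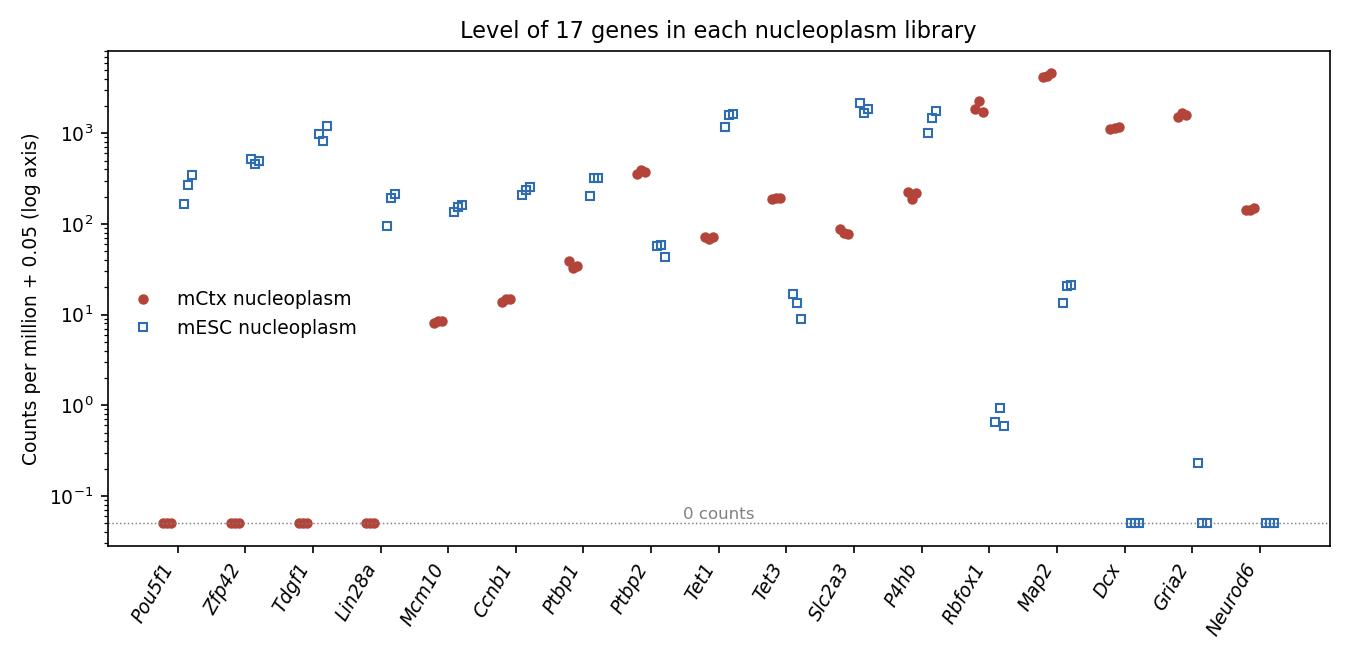
Level of 17 genes in the 3 mCtx (filled circles) and 3 mESC (open squares) nucleoplasm libraries, in CPM plus 0.05 on a log axis, where the dotted line marks 0 counts. The libraries of the cell types do not overlap for any of the 17; Pou5f1, Zfp42, Tdgf1 and Lin28a lie at 0 counts in mCtx, and Dcx and Neurod6 at 0 counts in mESC.

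All 25 pluripotency factors and markers were lower in mCtx nucleoplasm. Their summed level was 4846 to 5809 CPM in mESC and 27.4 to 31.4 CPM in mCtx, and 12 of the 25 had no count in any mCtx library. The median log2 fold change of the list was -12.33, or -8.41 when genes at 0 were set to their bound, and -4.25 on the log2(TPM + 1) scale after TPM were rescaled by the median ratio between libraries (called rescaled TPM below).

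Tdgf1, which encodes the NODAL co-receptor CRIPTO, was at 969, 817 and 1210 CPM in mESC and at 0 in mCtx, at least 4371-fold lower. Zfp42, the stem cell marker REX1, was at 520, 452 and 500 CPM in mESC and at 0 in mCtx, at least 2148-fold lower. In the count table every mESC library held both transcripts at 452 CPM or more and no mCtx library had a count of either. The deposited TPM of the mCtx libraries were 0, 0.15 and 0.07 for Tdgf1 and 0.1, 0.08 and 0 for Zfp42. Dppa5a (at least 2966-fold lower), the RNA-binding gene L1td1 (at least 1373-fold lower) and Nanog, a core factor of the network (at least 620-fold lower), were also without a count in mCtx. Fgf4, a growth factor gene that OCT4 and SOX2 activate, was at 226, 137 and 174 CPM in mESC and at least 783-fold lower in mCtx.

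Sox2 was lower without being lost: this factor of stem cells and of neural progenitors remained at 15, 17 and 16.5 CPM in mCtx against 255, 251 and 261 CPM in mESC (log2 fold change -3.98, SE 0.15, edgeR adjusted p = 2.56e-18). Cell adhesion genes of epithelium-like colonies stood among the largest differences too. Cdh1, which encodes E-cadherin, was at 795, 1153 and 1066 CPM in mESC and had 1 count in all of mCtx, a ratio of 39193 (95% counting interval 7034 to 1548080). Cdh3, which encodes P-cadherin, was at least 779-fold lower in mCtx. Of 10 primed and early lineage genes tested, 8 were lower in mCtx, among them the endoderm gene Gata4 (6.71, 6.30 and 5.77 CPM in mESC, at least 27.4-fold lower by counts, but 0.10 higher in mCtx on the log2(TPM + 1) scale), and 1, Fgf5, was higher at 1.02, 1.08 and 1.47 CPM against 0.122, 0.339 and 0.154 CPM.

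Genes of DNA replication and mitosis were lower in mCtx throughout. All 32 replication licensing and DNA synthesis genes (median log2 fold change -2.67) and all 28 mitosis genes (median -2.97) were lower in mCtx, at a background of 43.9% of genes lower. Orc1, a subunit of the origin recognition complex, was at 2.11, 2.70 and 3.01 CPM in mCtx and 74.8, 82.1 and 84.4 CPM in mESC (log2 fold change -4.94, SE 0.16, edgeR adjusted p = 8.60e-20). Cdt1, which loads the replicative helicase, was at 3.44, 4.16 and 3.67 CPM against 85.3, 105 and 93.9 CPM (-4.65, SE 0.21). For Orc1, 63.3% of the span is overlapped by a gene on the other strand, and whether counting used strand is not given in the sources used here.

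None of these genes reached 0 in mCtx. Anln, which encodes the cytokinesis protein anillin, was at 17, 17.4 and 17.5 CPM in mCtx and 548, 509 and 473 CPM in mESC (log2 fold change -4.88, SE 0.14, edgeR adjusted p = 7.81e-21). Ccnb1, the mitotic cyclin B1, was at 13.8, 14.8 and 14.7 CPM against 210, 236 and 257 CPM (-4.02, SE 0.13). Mki67, the proliferation marker, was at 219, 205 and 220 CPM in mCtx and 756, 695 and 660 CPM in mESC (-1.71, SE 0.16, edgeR adjusted p = 2.00e-10), the smallest difference of the mitosis list.

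Promoters of the replication genes were searched for letters that the choice of the list did not use. E2F transcription factors bind elements close to TTTCCCGC and TTTGGCGC, and either of these on either strand stood in 10 of the 26 replication genes with a promoter in the RefSeq table (38.5%), in 0 of 23 mitosis genes, and in 514 of all 32851 promoters (1.6%). The other lists with over 10% were Polycomb genes (3 of 20), SR and hnRNP genes (4 of 31) and BAF subunits (2 of 19). The list shares count a gene with a match in any of its promoters. Counted that way, the letters stood in 3.1% of genes tested, in 2.4% of those higher in mCtx and in 3.8% of those higher in mESC. Promoters of 4 of these 10, chosen after their values were seen, are shown as examples of how the letters, in capitals, lie near the start (RefSeq, build GRCm38.p6, 250 bases before to 50 after the start, read in the direction of the gene). Mcm3, Mcm6 and Mcm7 encode helicase subunits and Cdc6 a helicase loader. Mcm3 lies at chr1:20820263-20820562 on the minus strand, Mcm6 at chr1:128359656-128359955 on the minus strand, Mcm7 at chr5:138171834-138172133 on the minus strand and Cdc6 at chr11:98907901-98908200 on the plus strand.
Mcm3: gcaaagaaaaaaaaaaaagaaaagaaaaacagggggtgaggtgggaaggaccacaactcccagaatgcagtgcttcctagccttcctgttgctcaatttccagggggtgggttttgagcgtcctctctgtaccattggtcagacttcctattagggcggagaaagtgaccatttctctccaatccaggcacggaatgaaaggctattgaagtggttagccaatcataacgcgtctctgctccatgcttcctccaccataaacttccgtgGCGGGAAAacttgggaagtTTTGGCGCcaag
Mcm6: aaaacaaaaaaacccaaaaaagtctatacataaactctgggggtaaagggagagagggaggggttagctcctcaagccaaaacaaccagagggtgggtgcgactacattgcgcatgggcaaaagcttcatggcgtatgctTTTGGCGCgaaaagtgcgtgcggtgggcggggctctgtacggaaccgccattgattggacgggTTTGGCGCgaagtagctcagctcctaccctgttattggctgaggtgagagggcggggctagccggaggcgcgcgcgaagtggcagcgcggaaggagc
Mcm7: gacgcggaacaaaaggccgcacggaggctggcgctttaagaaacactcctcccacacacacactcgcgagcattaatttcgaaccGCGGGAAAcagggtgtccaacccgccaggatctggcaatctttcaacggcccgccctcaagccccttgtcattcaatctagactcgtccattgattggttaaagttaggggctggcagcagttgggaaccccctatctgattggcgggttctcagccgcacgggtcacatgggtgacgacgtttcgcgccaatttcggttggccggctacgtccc
Cdc6: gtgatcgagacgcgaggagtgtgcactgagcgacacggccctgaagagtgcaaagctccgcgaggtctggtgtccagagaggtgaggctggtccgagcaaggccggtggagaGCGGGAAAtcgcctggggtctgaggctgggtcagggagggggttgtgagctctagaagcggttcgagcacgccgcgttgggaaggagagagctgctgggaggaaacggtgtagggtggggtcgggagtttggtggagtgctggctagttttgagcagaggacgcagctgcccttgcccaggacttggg

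All 4 were lower in mCtx nucleoplasm, as was each gene of the list. Mcm3 was at 19.6, 20.3 and 21.9 CPM in mCtx and 166, 250 and 233 CPM in mESC (-3.39, SE 0.17, edgeR adjusted p = 5.63e-16). Mcm6 (-2.47), Mcm7 (-2.76) and Cdc6 (-4.11) followed, and no mCtx library reached the mESC range for any of the 4. A match is a description of letters and was not tested as a binding site. The letters CAGCACC, part of the RE1 element bound by the repressor REST, were searched on both strands and stood in 7.1% of all promoters. Counted per gene, they stood in 9.3% of genes tested, in 9.7% of those higher in mCtx and in 9.0% of those higher in mESC. In the neuronal lists they stood in 3 of 17 cytoskeleton genes (17.6%), 2 of 14 interneuron genes (14.3%) and 3 of 22 identity factors (13.6%). They stood in 2 of 19 postsynaptic scaffold genes (10.5%), 2 of 26 synaptic vesicle genes (7.7%) and 1 of 22 voltage-gated channel genes (4.5%). None of 20 receptor and 21 neural RNA-binding protein genes had them. Other lists spanned a similar range, so the letters did not set the neuronal lists apart. They stood in 2 of 10 microglia and macrophage markers, 4 of 21 glycolysis genes and 4 of 23 mitosis genes. At the low end were replication genes (1 of 26) and stem cell RNA-binding genes (none of 13).

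Neuronal genes were higher in mCtx in each functional group listed. Of 27 neuronal identity transcription factors, 25 were higher in mCtx, none was lower, and Tle4 (0.59) and Neurod1 (0.61) did not pass, at a background of 38.4% higher. The median log2 fold change was 6.99 by counts and 3.42 on the rescaled log2(TPM + 1) scale. Neurod6, a factor of pyramidal neurons, was at 143, 141 and 149 CPM in mCtx and 0 in mESC, at least 700-fold higher. Neurod2 was at 95.1, 93.8 and 90.7 CPM and at least 453-fold higher. Mef2c, an activity-regulated factor, was at 954, 1036 and 935 CPM against 0.183, 0.0677 and 0.462 CPM (12.01, SE 0.45, edgeR adjusted p = 1.19e-18, or 12.80 without mESC library 3). Tbr1, a factor of deep-layer neurons, was at 80.5, 74.8 and 77.4 CPM in mCtx and had 2 counts in all of mESC, a ratio of 1712 (95% counting interval 473 to 14141).

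All 33 synaptic vesicle and release genes and all 32 voltage-gated ion channel genes were higher in mCtx, with median log2 fold changes of 5.36 and 6.52 by counts and of 3.18 and 2.62 by rescaled TPM. Of 31 glutamate and GABA receptor genes 30 were higher (median 7.60, or 2.87 by rescaled TPM), and Grik3 did not pass (-0.03, edgeR adjusted p = 0.909, and 1.64 by rescaled TPM). Gria2, the AMPA receptor subunit that limits calcium entry, was at 1518, 1661 and 1607 CPM in mCtx and 0.183, 0 and 0 CPM in mESC, a ratio of 23490 (95% counting interval 8037 to 113908). Grin2b, an NMDA receptor subunit, was at 1644, 1731 and 1526 CPM against 1.04, 0.813 and 0.770 CPM (10.84, SE 0.28). Syt1, the calcium sensor of vesicle release, was at 1179, 1282 and 1116 CPM against 1.83, 1.83 and 1.08 CPM (9.53, SE 0.28, edgeR adjusted p = 1.22e-20). Slc17a6, the vesicular glutamate transporter VGLUT2, stood far lower at 23, 27 and 25.3 CPM in mCtx, yet had no count in mESC and was at least 122-fold higher.

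Among postsynaptic scaffold genes 23 of 25 were higher and Homer3 was lower. Dlg2 and Nlgn1, a scaffold and an adhesion protein of the postsynaptic membrane, had log2 fold changes of 12.35 (13.19 without mESC library 1) and 12.97. Dlg4, which encodes PSD-95, was at 109, 94.0 and 110 CPM in mCtx and 5.73, 12.7 and 9.24 CPM in mESC (3.51, SE 0.24). Homer3 was at 12, 9.48 and 10.4 CPM in mCtx and 22.9, 21.7 and 18.2 CPM in mESC (-0.98, SE 0.12, edgeR adjusted p = 2.57e-08); Ddx49 overlaps 13.0% of its span on the other strand.

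In the cytoskeleton list 29 of 30 were higher in mCtx (median 5.53, or 4.94 by rescaled TPM). Dcx, the microtubule-associated protein of migrating neurons, was at 1100, 1138 and 1186 CPM in mCtx and at 0 counts in all 3 mESC libraries, at least 5548-fold higher. Tubb3, the neuronal beta-tubulin, was at 1807, 1545 and 1744 CPM against 34.4, 53.9 and 64.6 CPM (5.06, SE 0.21). Nefh, which encodes the heavy neurofilament subunit of mature large axons, was the exception at 4.76, 3.24 and 3.96 CPM in mCtx and 31.9, 35.5 and 49.2 CPM in mESC (-3.28, SE 0.28, edgeR adjusted p = 3.19e-10).

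**Figure D2:**
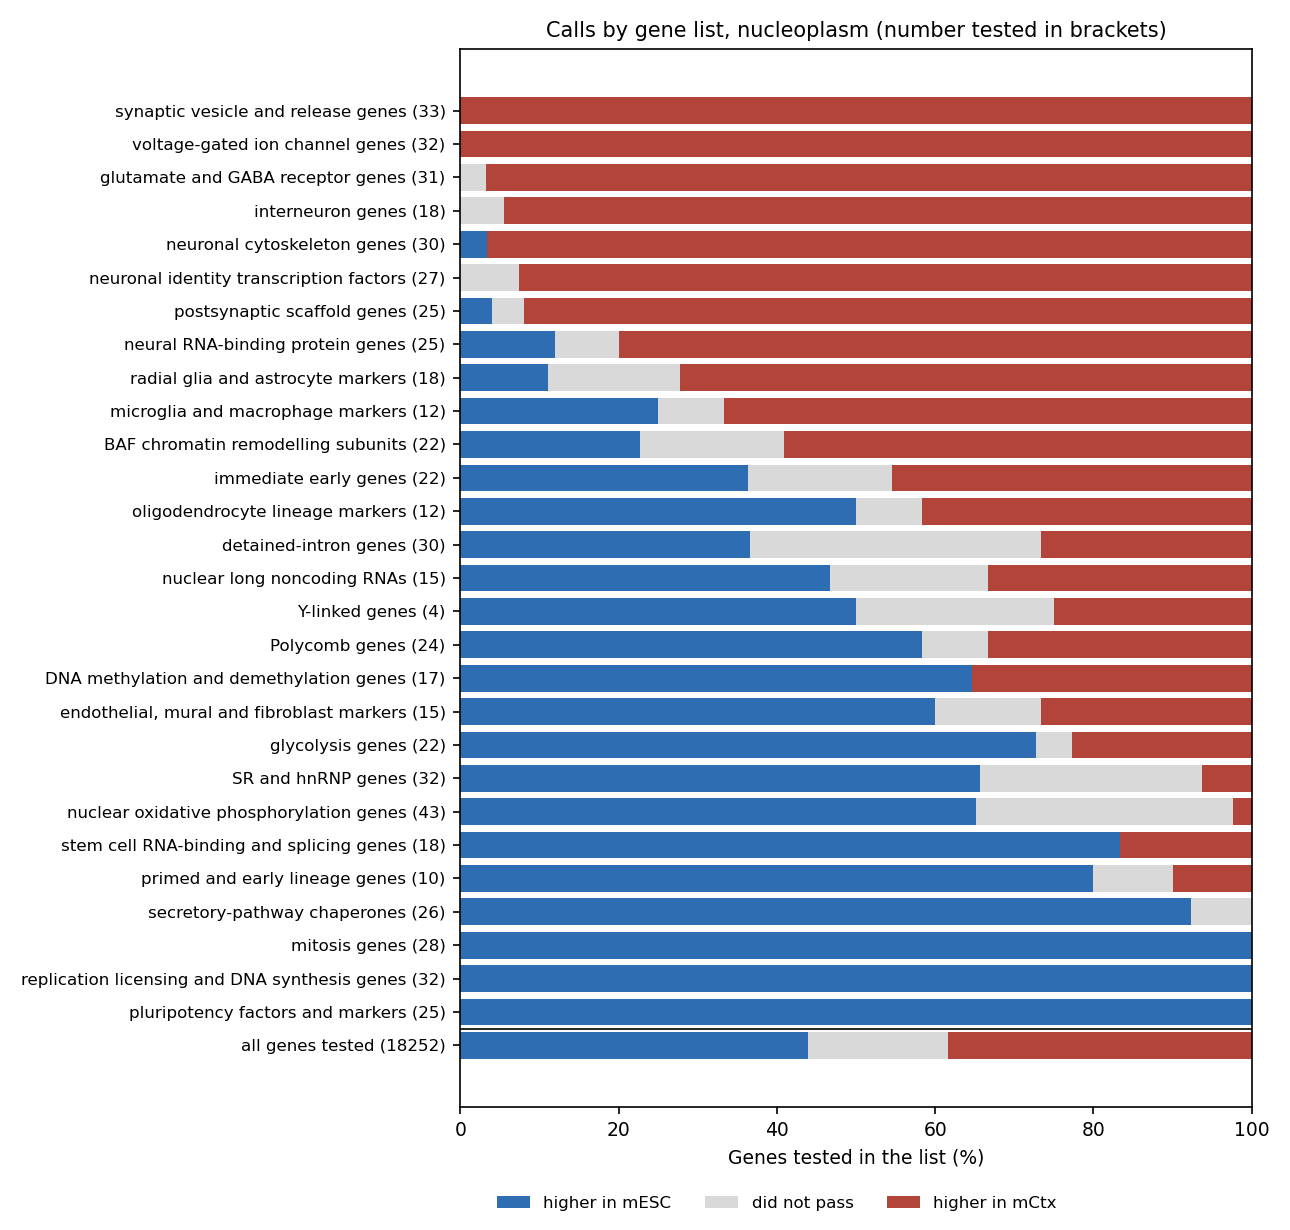
Share of the tested genes of each list that were higher in mESC (blue), did not pass (grey) or were higher in mCtx (red) in nucleoplasm, with the number tested in brackets and all 18252 genes in the lowest bar. The bars of the 25 pluripotency, 32 replication and 28 mitosis genes are wholly blue, and those of the 33 synaptic vesicle and 32 channel genes wholly red.

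RNA-binding protein genes differed by family member. Ptbp1, a splicing repressor of non-neuronal cells, was at 38.7, 32.4 and 34.0 CPM in mCtx and 203, 323 and 319 CPM in mESC (log2 fold change -3.01, SE 0.17, edgeR adjusted p = 1.44e-14). Its neural paralog Ptbp2 went the other way, at 358, 395 and 370 CPM against 57.4, 58.9 and 42.7 CPM (2.82, SE 0.15, edgeR adjusted p = 3.34e-15). No library of one cell type entered the range of the other for either gene, and the rescaled TPM gave -2.53 and 2.66. Plppr3 overlaps 41.5% of the Ptbp1 span on the other strand.

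Of 25 neural RNA-binding protein genes tested, 20 were higher in mCtx and 3 lower. Rbfox1, a neuronal splicing factor, was at 1849, 2272 and 1696 CPM against 0.610, 0.881 and 0.539 CPM (11.46, SE 0.36), and Celf2 at 4739, 5591 and 4568 CPM against 15.9, 10.7 and 9.16 CPM (8.70, SE 0.22). Igf2bp1, a binder of mRNA in embryonic cells, was lower at 26, 25 and 24.5 CPM against 528, 801 and 774 CPM (-4.80, SE 0.29), and Mbnl2 (-0.90) and Msi2 (-0.69) were lower by little. Of 18 stem cell RNA-binding genes 15 were lower, led by Lin28a, the inhibitor of let-7 processing, at 94.8, 192 and 216 CPM in mESC and at least 734-fold lower in mCtx. Lin28b kept 28.4, 33.1 and 29.8 CPM in mCtx against 56.4, 89.8 and 101 CPM (-1.44, SE 0.24). Rbm24 (5.53, or 6.16 without mESC library 1), Mex3b (5.13) and Igf2bp3 (0.90) of that list were higher in mCtx.

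General splicing factors differed less. Among 32 SR and hnRNP genes 21 were lower in mCtx, 2 were higher and 9 did not pass, with a median of -0.61, against -0.18 over all genes. With total counts 27 were lower and 1 higher, and on the log2(TPM + 1) scale 11 were lower and 5 higher. Srsf2, an SR protein, was at 75.5, 69.8 and 70.2 CPM against 263, 298 and 289 CPM (-1.98, SE 0.13, edgeR adjusted p = 3.03e-13), though Mettl23 on the other strand overlaps the whole of its span. Hnrnpr was higher at 158, 164 and 163 CPM against 74.8, 81.6 and 88.8 CPM (0.98, SE 0.11).

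Detained-intron genes make transcripts that are held in the nucleus with introns still in place. Of 30 in the list 8 were higher in mCtx, 11 lower and 11 did not pass, and the direction depended on the scale, since log2(TPM + 1) gave 11 higher and 5 lower. Gabbr1, for the GABA-B receptor, led those higher at 400, 349 and 370 CPM against 32.6, 22.9 and 25.6 CPM (3.78, SE 0.17, edgeR adjusted p = 9.17e-17), followed by Tia1 (1.76), Nktr (1.44) and Rbm5 (1.24). Mat2a, the methionine adenosyltransferase gene, led the lower protein-coding genes at 114, 120 and 115 CPM against 233, 305 and 345 CPM (-1.34, SE 0.13).

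Enzymes that write and erase DNA methylation divided between the cell types. Of 17 genes, 11 were lower and 6 higher in mCtx. Dnmt3l, the cofactor of de novo methylation, was at 88.6, 90.5 and 92.7 CPM in mESC and at 0 in mCtx, at least 396-fold lower, and Dnmt3b was at 7.58, 7.47 and 6.53 CPM in mCtx against 81.9, 204 and 188 CPM (-4.45, SE 0.33). Dnmt3a was higher at 260, 255 and 261 CPM against 52.3, 104 and 99.2 CPM (1.60, SE 0.22). The demethylating dioxygenases split in the same manner: Tet1 was at 71.9, 67.4 and 72.0 CPM in mCtx and 1159, 1576 and 1645 CPM in mESC (-4.37, SE 0.16), and Tet3 at 187, 192 and 193 CPM against 16.8, 13.3 and 8.93 CPM (3.87, SE 0.15).

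Polycomb genes, whose products keep developmental genes silent, had 14 of 24 lower and 8 higher. Cbx7, the chromobox subunit typical of stem cells, was at 2.66, 2.08 and 2.42 CPM in mCtx and 110, 107 and 104 CPM in mESC (-5.48, SE 0.19), whereas Cbx8 was higher by 4.50. Suz12, a core subunit of the methylating complex, was at 43.7, 46.7 and 44.2 CPM against 383, 334 and 402 CPM (-3.06, SE 0.13). Its catalytic subunit Ezh2 was higher in mCtx by 0.30 (108, 112 and 103 against 75.5, 95.6 and 90.2 CPM, SE 0.11, edgeR adjusted p = 0.0165), and its sign turned to -0.14 with total counts and -0.23 with rescaled TPM. Ezh1 was lower by 1.5 on the log2 scale (21.2, 21.2 and 20.2 against 65.0, 59.5 and 52.7 CPM).

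Of 22 subunits of the BAF chromatin remodeller 13 were higher in mCtx and 5 lower. Actl6b, the neuronal BAF subunit, was at 48.6, 51.3 and 52.3 CPM in mCtx and 0.305, 0.203 and 0.154 CPM in mESC (7.76, SE 0.29), while Actl6a, its counterpart in dividing cells, was at 22.3, 22.3 and 20.4 against 77.2, 113 and 122 CPM (-2.26, SE 0.15). The pairs Ss18 and Ss18l1 (-1.75 and 2.68) and Phf10 and Dpf1 (-1.18 and 2.88) were opposed in the same way, though 89.5% of the Phf10 span is overlapped on the other strand. The ATPase genes differed in this, as Smarca2 (7.61) and Smarca4 (1.57) were both higher. Of 15 pairs of paralogs with values, 9 had the member listed first lower and the member listed second higher in mCtx. The pairs of Ptbp, Dnmt3, enolase, aldolase, sodium pump and cyclin-dependent kinase genes were included.

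Of 15 nuclear long noncoding RNAs tested, 5 were higher and 7 lower in mCtx. Malat1, the abundant RNA of nuclear speckles, was at 9157, 9437 and 9924 CPM in mCtx and 10827, 5030 and 4087 CPM in mESC, and the difference of 0.52 (SE 0.26) did not pass (edgeR adjusted p = 0.0676). The mESC library numbered 1 lay above all mCtx libraries and the other mESC libraries below them, and without it the difference was 1.06 and passed. On the rescaled TPM scale it was 1.43 and passed. Neat1, the scaffold RNA of paraspeckles, was at 13.0, 12.4 and 12.1 CPM in mCtx and 204, 88.5 and 65.6 CPM in mESC (-3.26, SE 0.35, edgeR adjusted p = 4.17e-09, or -2.62 without mESC library 1). Meg3, an imprinted RNA, was higher at 894, 1008 and 945 CPM against 96.5, 121 and 94.6 CPM (3.19, SE 0.29), and Lncenc1, an RNA of naive stem cells, was at 0.469, 1.16 and 0.954 CPM against 464, 429 and 402 CPM (-8.95, SE 0.24).

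Xist, which coats the inactive X chromosome in female cells, was at 24.2, 116 and 201 CPM in mCtx and had 2 counts in all of mESC (ratio 2551, 95% counting interval 706 to 21074). The 3 mCtx libraries were far apart, and the Y-linked genes ran the other way, with a summed level of 229, 193 and 28.7 CPM in mCtx libraries 1, 2 and 3 and 234 to 269 CPM in mESC. Eif2s3y and Ddx3y were lower in mCtx by 1.46 and 1.78 on the log2 scale, and Kdm5d was higher by 3.98. The span of Xist is wholly overlapped by Tsix on the other strand. Tsix ran opposite to Xist, at 0.0781, 0.077 and 0.147 CPM in mCtx and 28.2, 25.9 and 18.9 CPM in mESC. The counts thus kept the strands apart at this locus, and strand use at other overlapped genes was not tested.

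Metabolic genes differed by family member. Of 22 glycolysis genes 16 were lower and 5 higher in mCtx. Slc2a3, the glucose transporter GLUT3, was at 87.4, 79.8 and 78.2 CPM in mCtx and 2143, 1678 and 1863 CPM in mESC (-4.53, SE 0.15, edgeR adjusted p = 7.02e-20). In cytoplasm the cell types lay much closer for Slc2a3, at 105, 107 and 104 CPM in mCtx and 184, 151 and 163 CPM in mESC. Hk2, the hexokinase of growing cells, was at 9.06, 7.63 and 7.19 CPM against 109, 262 and 346 CPM (-4.91, SE 0.42), and Hk1, the hexokinase of brain, at 341, 310 and 353 CPM against 30.1, 29.8 and 24.8 CPM (3.56, SE 0.13). Hk1os overlaps 20.8% of the Hk1 span on the other strand. Slc16a3, a lactate exporter gene, was at 0.781, 0.308 and 0.220 CPM against 192, 392 and 436 CPM (-9.59, SE 0.60, or -10.29 without mCtx library 1). The mESC library numbered 1 held the lowest level of the 3 for Hk2, Slc16a3 and Slc2a1 and the highest for Slc2a3. Ldha was lower in mCtx by 1.13 on the log2 scale and Ldhb did not pass (-0.11, edgeR adjusted p = 0.746, and 0.31 without mESC library 1). Nuclear genes of oxidative phosphorylation were lower in 28 of 43 and higher in 1, with a median of -0.36 beside -0.18 for all genes, while log2(TPM + 1) gave 9 lower and 6 higher.

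The mitochondrial chromosome was set apart before scaling because its share differed so much. It took 2.01%, 2.06% and 2.30% of counts in mCtx and 29.5%, 27.9% and 29.8% in mESC, a difference of -26.9 percentage points (exact two-sided permutation test, p = 0.1, the smallest that 3 against 3 can give). Most of the difference lay in the ribosomal RNAs: mt-Rnr2 was at 7200 ± 811 CPM in mCtx and 290547 ± 25166 CPM in mESC (SD, n = 3 each), a ratio of 40.4, and mt-Rnr1 at 633 ± 76.2 and 35696 ± 4012 CPM, a ratio of 56.4. Mitochondrial mRNAs differed by less than the ribosomal RNAs, and in both directions. The widest ratio among those with over 30 reads was that of mt-Nd6, at 87.9, 95.2 and 91.9 CPM in mCtx and 139, 246 and 300 CPM in mESC, a ratio of mESC to mCtx of 2.49. It was 1.58 for mt-Co1, 1.21 for mt-Nd2 and 1.07 for mt-Nd1, whose libraries overlapped, 0.909 for mt-Nd5, whose libraries overlapped too, and 0.713 for mt-Cytb and 0.705 for mt-Nd4, which were higher in mCtx. Without both ribosomal RNA genes, the chromosome took 1.47% ± 0.0781 of counts in mCtx and 2.57% ± 0.0208 in mESC. Reads on mt-Co2, mt-Co3, mt-Atp6, mt-Atp8, mt-Nd3 and mt-Nd4l numbered 30 or fewer per gene over the 6 libraries. The shares above thus take in next to nothing from these genes, and the reason was not tested.

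**Figure D3:**
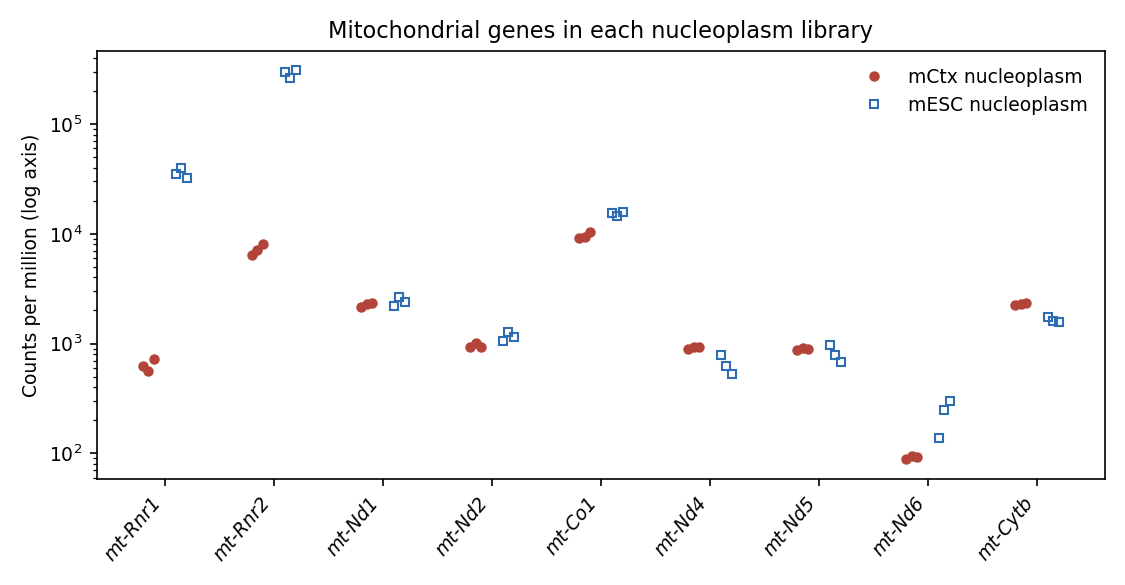
Level of the 9 mitochondrial ribosomal RNA and protein genes with a summed mean of 10 CPM or more, in CPM on a log axis, in the mCtx (filled circles) and mESC (open squares) nucleoplasm libraries. The ribosomal RNAs differ by 40.4- and 56.4-fold, while the libraries of mt-Nd1 and mt-Nd5 overlap.

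The direction of the difference varied with gene span. Genes of 100 kb or more took 42.7%, 45.3% and 42.0% of nuclear-genome counts in mCtx and 12.8%, 12.4% and 11.1% in mESC, 43.3% ± 1.74 against 12.1% ± 0.889 (SD, n = 3 each, exact two-sided permutation test, p = 0.1, the smallest possible). Of 506 protein-coding genes of 300 kb or more, 447 were higher in mCtx and 34 lower, with a median log2 fold change of 5.02, while of 3827 genes under 10 kb 1006 were higher and 2171 lower, with a median of -0.82. Counts over a long span include intronic reads, and the same 506 genes had a smaller median of 1.78 on the rescaled log2(TPM + 1) scale. Kcnip4, which encodes a partner of A-type potassium channels and spans 1135403 bases, shows the gap: it was at 2075, 2551 and 1928 CPM in mCtx and 0.427, 0.745 and 0.0770 CPM in mESC, but at 3.39, 2.40 and 2.84 TPM against 0.55, 0.49 and 0.45 TPM. Between 50 and 200 kb as the limit, the share in mCtx ran from 61.5% to 27.8% and in mESC from 28.7% to 3.72%.

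**Figure D4:**
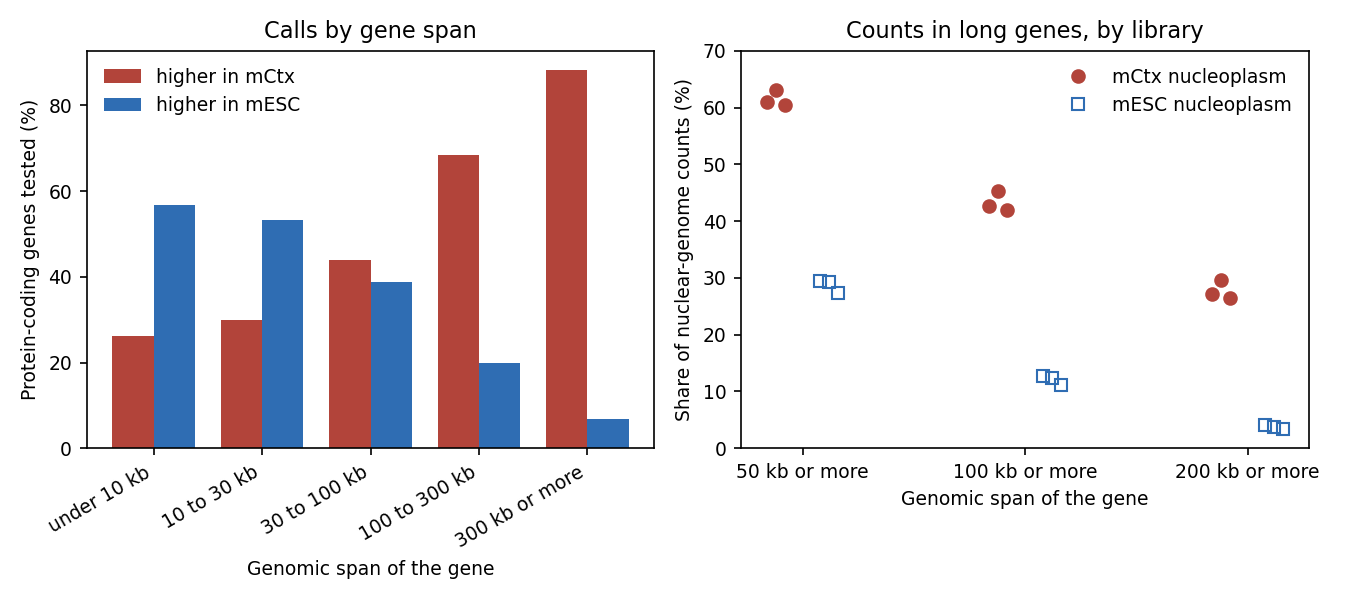
Left, the share of protein-coding genes tested that were higher in mCtx (red) or in mESC (blue) by genomic span. Right, the share of nuclear-genome counts in genes of at least 50, 100 or 200 kb in each mCtx (filled circles) and mESC (open squares) nucleoplasm library; at 100 kb the mCtx libraries lie between 42.0% and 45.3% and the mESC libraries between 11.1% and 12.8%.

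Markers of other cell types were measured beside the neuronal lists. Interneuron genes were higher in 17 of 18, with Sst, a neuropeptide of interneurons, at 22.6, 17.6 and 22.5 CPM in mCtx and at least 102-fold higher, and the summed level of the list was 998 to 1090 CPM in mCtx and 13.9 to 31.8 CPM in mESC. Radial glia and astrocyte markers were higher in 13 of 18 and lower in 2, with summed levels of 3426 to 3719 CPM and 808 to 863 CPM. Slc1a2, the glial glutamate transporter, was at 387, 355 and 382 CPM in mCtx and 0.244, 0.542 and 0 CPM in mESC (10.39, SE 0.41, or 11.35 without mESC library 2), while Gja1, which encodes connexin 43 and is also made by stem cells, was at 10.7, 8.40 and 9.54 CPM against 587, 583 and 481 CPM (-5.85, SE 0.27). Of 12 microglia and macrophage markers tested, 8 were higher in mCtx and 3 lower, all at low levels: C1qb, a complement gene of microglia, was at 1.25, 1.54 and 1.83 CPM in mCtx and had no count in mESC, at least 7.49-fold higher. Aif1 and P2ry12 were at 0 to 2 counts per mCtx library and not tested. The summed level of the list ran the other way, at 33.7 to 37.8 CPM in mCtx and 69.3 to 73.9 CPM in mESC, where Laptm5 held 40.4, 27.3 and 34.9 CPM and Cx3cr1 26.8, 40.8 and 36.9 CPM. Ttc21a overlaps 18.1% of the Cx3cr1 span on the other strand, and by TPM Cx3cr1 was at 0.38 to 0.73 in mCtx and 0.01 to 0.04 in mESC.

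Of 12 oligodendrocyte lineage markers tested, 5 were higher in mCtx and 6 lower, with similar sums of 85.5 to 92.7 CPM and 75.3 to 84.3 CPM. Ugt8a was lower in mCtx at 2.34, 2.39 and 3.01 CPM against 14.1, 23.2 and 23.1 CPM. Cnp (3.94 ± 0.38 against 16.7 ± 4.0 CPM) and Mobp (0.1 ± 0.0869 against 3.01 ± 1.18 CPM) were lower too. The lineage factors Olig1 and Olig2 were among those higher in mCtx. Olig1 was at 22.3, 19.7 and 17.9 CPM in mCtx and 0.427, 0.339 and 0.693 CPM in mESC (5.36, SE 0.26), and Olig2 at 14.3, 12 and 12.7 CPM with 3 counts in all of mESC (ratio 191, 95% counting interval 65.1 to 930). Of 15 endothelial, mural and fibroblast markers tested, 4 were higher in mCtx and 9 lower. Rgs5, a pericyte gene, was at 6.40, 7.24 and 9.02 CPM in mCtx against 0.244, 0.135 and 0.0770 CPM (5.51, SE 0.52). The list summed to 49.5 to 56.2 CPM in mCtx and 220 to 520 CPM in mESC, where Pecam1, also a surface protein of stem cells, held 406, 237 and 156 CPM. The part of glial or other cells in the neuronal differences was not tested.

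Immediate early genes, which neurons switch on with activity, were mixed: 10 of 22 were higher in mCtx and 8 lower, and 8 and 9 with total counts. Nr4a3 was at 97.9, 103 and 108 CPM in mCtx and had 3 counts in mESC (ratio 1518, 95% counting interval 519 to 7362), and Npas4, which is specific to neurons, was at 3.83, 4.08 and 7.48 CPM and at least 24.9-fold higher. Arc, a regulator of synaptic strength, was lower at 1.56, 1.16 and 1.83 CPM against 13.3, 12.5 and 14.5 CPM (-3.14, SE 0.37), as was Ier2 at 2.58, 2.00 and 2.93 CPM against 39.8, 57.9 and 62.6 CPM (-4.41, SE 0.39).

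The remaining comparison asks where nucleoplasm differed from the other fractions, tested as the difference of the cell type differences. Against cytoplasm 45.5% of genes passed: 3737 (20.5%) had a higher and 4568 (25.0%) a lower mCtx minus mESC difference in nucleoplasm; against chromatin 25.8% passed, with 3030 (16.6%) and 1687 (9.24%). These splits move with the scaling: with total counts they became 1648 and 7312 against cytoplasm and 7273 and 544 against chromatin, and with the mitochondrial chromosome kept 4077 and 1237 against chromatin. With log2(TPM + 1) they were 12809 and 1755, and 4364 and 5280.

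All 26 secretory-pathway chaperones, which fold proteins in or move them into the endoplasmic reticulum, had a lower difference in nucleoplasm than in cytoplasm, at a background of 25.0%, and this held with every scaling of the counts and with rescaled TPM, and for 23 of the 26 with log2(TPM + 1). In nucleoplasm 24 of the 26 were higher in mESC (median -1.28); in cytoplasm 19 were higher in mCtx and 3 in mESC (median 1.36). P4hb, a protein disulfide isomerase, was at 226, 188 and 220 CPM in mCtx and 998, 1464 and 1742 CPM in mESC nucleoplasm (-2.73, SE 0.19), and at 260, 277 and 273 CPM against 194, 232 and 288 CPM in cytoplasm (0.18, edgeR adjusted p = 0.343). The difference of the differences was -2.91 (SE 0.26, edgeR adjusted p = 6.19e-10). Summed over the list, the mESC level was 11340 to 15374 CPM in nucleoplasm and 1684 to 2135 CPM in cytoplasm, while the mCtx level was 4698 to 5051 CPM and 4026 to 4147 CPM. The mitochondrial ribosomal RNA was also high in mESC nucleoplasm, and the part of RNA from outside the nucleus in this comparison was not tested.

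**Figure D5:**
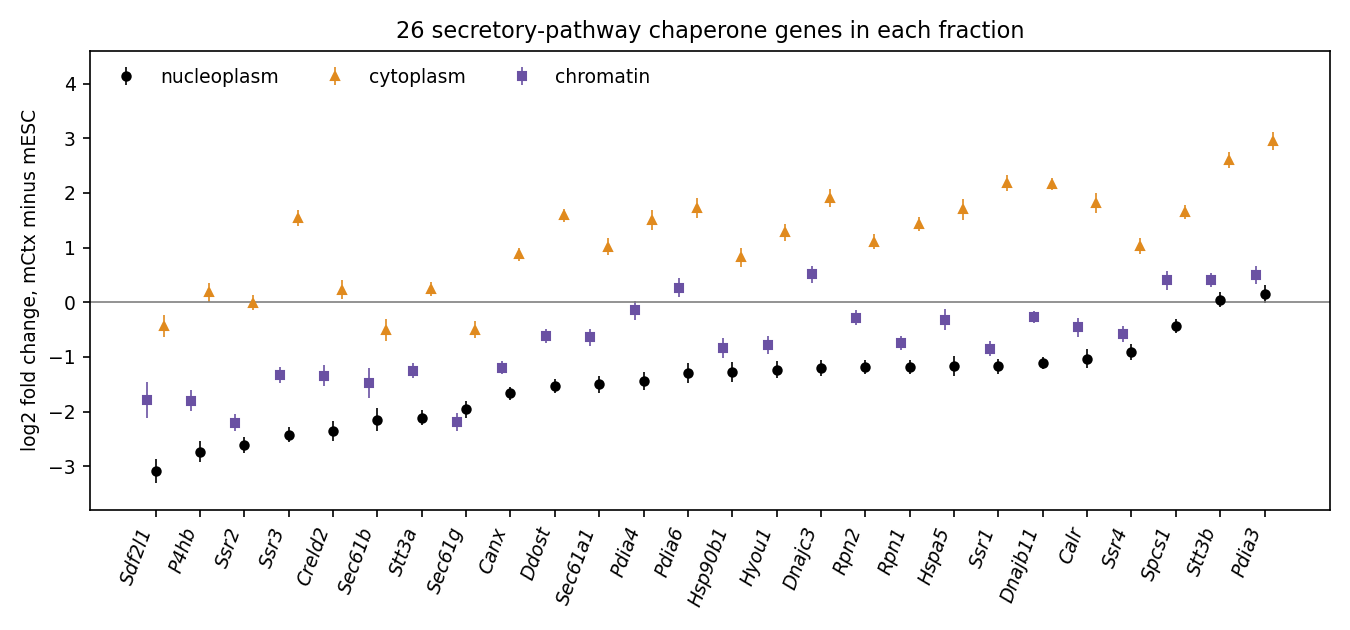
Log2 fold change, mCtx minus mESC, with its standard error, of 26 secretory-pathway chaperone genes in nucleoplasm (black circles), cytoplasm (orange triangles) and chromatin (purple squares). For every gene the cytoplasm value lies above the nucleoplasm value, as for P4hb at 0.18 and -2.73.

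Among single genes with the lowest such differences was Tmed7. Tmed7, a cargo receptor of the secretory pathway, was at 43.8, 38.8 and 37.3 CPM in mCtx and 226, 198 and 233 CPM in mESC nucleoplasm, and at 143, 119 and 119 CPM against 32.0, 28.5 and 26.4 CPM in cytoplasm. The order of the cell types thus turned over between the fractions (difference -4.59, SE 0.16, edgeR adjusted p = 1.68e-16). Ceacam1, Spn and Prtg, which all encode membrane proteins, were also among the 5 lowest by fitted value, but Ceacam1 and Spn had no count in mCtx nucleoplasm, so the size of their differences is not known. Slc2a3 was 166 ± 16.9 CPM in mESC cytoplasm and 1895 ± 234 CPM in mESC nucleoplasm. In mCtx it was 106 ± 1.41 CPM in cytoplasm and 81.8 ± 4.91 CPM in nucleoplasm. Its difference in nucleoplasm minus that in cytoplasm was -3.88 (SE 0.18, edgeR adjusted p = 1.39e-14).

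On the high side stood long neuronal genes. Lrp1b, a giant receptor gene, was at 380, 442 and 370 CPM in mCtx and 2.26, 3.93 and 4.77 CPM in mESC nucleoplasm, and at 19.4, 19.2 and 23.1 against 5.67, 8.28 and 10.6 CPM in cytoplasm (difference 5.45, SE 0.31, edgeR adjusted p = 3.88e-13). Mdga2 (4.67, or 4.04 without mESC library 1 and 5.42 without mESC library 3) and Il1rapl1 (4.4), genes of synaptic adhesion, followed. Mageb16 and Tgm1, both lower in mCtx, were the others of the 5 highest by fitted value. Mageb16 had no count in mCtx cytoplasm and Tgm1 was at 0, 0 and 0.0819 CPM there, so the size of their differences is not known.

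Against chromatin, many synaptic and cytoskeletal genes had larger differences in nucleoplasm: 26 of 33 synaptic vesicle genes and 22 of 30 cytoskeleton genes had a higher difference there and none a lower one, at a background of 16.6% higher. Gabbr1 was at 373 ± 25.2 CPM in mCtx and 27.1 ± 5.02 CPM in mESC nucleoplasm, but at 123 ± 4.72 and 71.7 ± 18.4 CPM in chromatin (SD, n = 3 each). Its difference was larger in nucleoplasm by 3.01 (SE 0.22, edgeR adjusted p = 6.33e-10), and in cytoplasm mCtx stood at 474 ± 12.7 and mESC at 15.4 ± 1.84 CPM. Map2 had a difference larger by 2.43 (SE 0.28). Ddn, which encodes the dendritic protein dendrin, was at 40.4, 32.1 and 36.1 CPM in mCtx nucleoplasm and had 2 counts in all of mESC nucleoplasm (ratio 798, 95% counting interval 221 to 6597), both in library 1, and was at 4.37 ± 0.659 against 0.280 ± 0.247 CPM in chromatin. The fitted Ddn difference of 5.51 (SE 1.03) rests on those 2 counts. Kcnk2, a potassium leak channel gene, was the lowest on the other side, at 49.0 ± 3.79 against 8.68 ± 1.42 CPM in nucleoplasm and 111 ± 10.3 against 1.06 ± 0.175 CPM in chromatin (difference -4.21, SE 0.28). The Kcnk2 difference was -0.58 on the log2(TPM + 1) scale and -0.29 after rescaling, and passed in neither.

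Counts and TPM gave the same direction for most genes. Of 15370 genes tested both ways, 11386 passed in counts and in rescaled TPM, and 11156 of these had the same sign. Of the 230 with opposite signs, 104 were higher in mCtx by TPM and 126 by counts.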

How the data were processed

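Per the labels, total RNA of 27 libraries was sequenced, and 6 enter the main comparison. The authors deposited whole-number counts per gene for 37332 genes and TPM for 53379 genes. STAR, kallisto and featureCounts are named without roles or versions, and mm10 as the build, per the submitters' processing notes. Length in the deposited table is the span from start to end, introns included, for each of the 37332 genes. Strand setting and multi-mapping are not given in the sources used here. The chromatin columns hold counts of the same kind.

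The 37 genes of the mitochondrial chromosome were removed before library sizes were taken. Counts of all 27 libraries were fitted in edgeR 4.0.16 (R 4.3.3) with trimmed-mean scaling, the default low-count filter, 1 coefficient per group and the quasi-likelihood test (18 residual degrees of freedom, Benjamini-Hochberg adjusted p under 0.05). Differences between fractions are contrasts of contrasts. TPM were tested in limma 3.58.1 as log2(TPM + 1) for genes at 1 TPM or more in 3 libraries. DESeq2 1.42.0 served as an alternative, as did other scalings, filters and left-out libraries. The test was checked on simulated data. A fold against a group without counts uses a floor of 3 counts per library, and with 1 to 3 counts an exact binomial interval, which covers counting error only. Shares were compared by exact permutation tests (scipy 1.17.1).

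The members and lists were chosen with earlier results of these data known. Genes were named by rule: the 10 highest and 10 lowest changes at a mean of 10 CPM or more, an anchor list, up to 3 members per list and direction, members against a list's majority, the 5 largest differences between fractions in each direction, and paralog pairs. Some genes that the rule names are not reported here. Tle4, Neurod1, Grik3 and the 4 promoter genes were named after their values were seen. Same-numbered mCtx and mESC nucleoplasm libraries did not deviate together (r of -0.01, 0 and 0.04), so that comparison has no replicate block. For the contrasts of fractions, same-numbered libraries deviated together over all genes in mESC, while r was low in mCtx. Sex-linked genes did follow the library number in mCtx. Summed Y-linked levels in mCtx libraries 1, 2 and 3 were 229, 193 and 28.7 CPM in nucleoplasm. They were 81.4, 52.9 and 9.5 CPM in cytoplasm and 323, 292 and 58.2 CPM in chromatin. Xist rose from library 1 to 3 in each fraction. A low r over all genes thus cannot decide whether mCtx fractions were paired. The main fraction contrasts leave pairing out, and the block is an alternative there.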

Additional observations from a re-analysis of the deposited data

Results flagged for a closer look

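These results are listed because the cell type difference in nucleoplasm differed from that in another fraction, by edgeR's quasi-likelihood test of the difference itself with Benjamini-Hochberg adjustment. That was so for 8305 of 18252 genes tested against cytoplasm (45.5%) and 4717 against chromatin (25.8%). For 793 of the 18252 genes mESC was higher in nucleoplasm and mCtx in cytoplasm, and for 424 the reverse. Against chromatin, 142 genes were higher in mESC nucleoplasm and mCtx chromatin, and 173 the reverse. These numbers were taken with trimmed-mean scaling only. The splits between fractions move with the scaling, so the balance of the directions here depends on it too.

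Among genes named above, 3 had opposite directions in nucleoplasm and cytoplasm. The secretory cargo receptor gene Tmed7 was higher in mESC nucleoplasm and in mCtx cytoplasm (difference -4.59 on the log2 scale). Igf2bp3 (1.54) and Ezh2 (0.74) were higher in mCtx nucleoplasm and in mESC cytoplasm. The direction of Ezh2 in nucleoplasm turned with the scaling, as given below.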

How the results depend on the processing

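For nucleoplasm, 7013 genes higher and 8021 lower in mCtx became 6866 to 7087 and 7834 to 8043 when 1 library was left out. With TPM the number higher was 12018 (pseudocount 1) and 12286 (pseudocount 0.1), each of 25219 tested, and 13607 of 43578 (no filter). Rescaled TPM gave 10403 higher and 7525 lower of 25219. The replicate block gave 7105 and 8081, and changed no count by over 1.5 times. Leaving out 1 library gave 3458 to 3805 higher and 4246 to 4592 lower against cytoplasm, and 2668 to 3474 and 1397 to 1796 against chromatin. Against cytoplasm, total counts gave 1648 and 7312, log2(TPM + 1) 12809 and 1755, and rescaled TPM 7990 higher. Median-ratio factors gave 4635 and 3881 there, and DESeq2 4797 and 3915, which turns the larger side. Against chromatin, total counts gave 7273 and 544, and TPM 5280 and 6454 lower without and with rescaling. A replicate block by culture gave 4326 and 5189 against cytoplasm and 4111 and 2321 against chromatin. With that block 9515 genes passed against cytoplasm and 6432 against chromatin, where the main fit gave 8305 and 4717. Over all genes, same-numbered nucleoplasm and cytoplasm libraries deviated together in mESC (r of 0.66, 0.32 and 0.56). In mCtx r was low (0.01, 0 and 0.04). The same held for nucleoplasm and chromatin libraries (0.57, 0.34 and 0.5 in mESC, 0.08, 0.05 and 0.04 in mCtx). Sex-linked genes nevertheless followed the library number across the mCtx fractions, and the main fraction contrasts leave such pairing out.

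The mitochondrial share differed by -26.9 percentage points, by -27.5 to -26.6 with 1 library left out and by -1.1 without the ribosomal RNA genes. The share in genes of 100 kb or more differed by 31.2 points, by 30.2 to 31.9 with 1 library left out and by 24.1 at 200 kb. Among single named genes, 2360 of 2423 values kept their direction and their side of the threshold. Signs turned for Gata4 with TPM (0.10, 0.17 and 0.10), Tle4 with TPM (-0.05, -0.03 and -0.05) and rescaled TPM (-0.44), Grik3 with TPM (2.11, 2.61 and 2.11), rescaled TPM (1.64), the replicate block (0.03) and when 1 library was left out (-0.24 to 0.39, the latter without mESC library 1), Cx3cr1 with unfiltered TPM (0.55), Ezh2 with total counts (-0.14) and rescaled TPM (-0.23), and Ldhb with TPM (0.36, 0.37 and 0.36) and when 1 library was left out (-0.37 to 0.31, the latter without mESC library 1). The cause was not tested. Counts of whole spans and TPM measure different reads, so low-count genes and long genes are the least certain.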
